A study of Rattus norvegicus with 17 samples.

Results

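The genes described here are those of mast cell granule proteases, of the histamine-forming enzyme and of the receptors that mark the mast cell, followed over all 17 arrays of a study of rat skin. They were chosen by name, as 10 listed genes (Cpa3, Mcpt1, Mcpt2, Tpsb2, Tpsab1, Cma1, Kit, Ms4a2, Hdc and Fcer1a), and 9 of the 10 were found through the RefSeq accession of a probe, out of 11166 named genes measured on these arrays. Mcpt2 has no entry of its own in the RefSeq table used for names. That table lists rMCP-1 and rMCP-2 both as synonyms of Mcpt1, so the probe given here as Mcpt1 cannot be assigned to one of the pair. The samples were skin explants of male CD hairless rats (spelled CD Haireless in the labels), labelled young, with 2 to 3 months given as their age at the start. They had been exposed to 94 GHz millimetre waves or sham exposed for 3 h a day on 3 days a week over 5.5 months, after which the skin was taken. The labels give 9 exposed and 8 sham arrays, but the submitters' design lists 6 exposed rats and 8 sham rats. More than 1 exposed array may thus come from the same rat, and p-values between groups would then be too small. Those of correlations over the arrays may then be too small as well. The rats were housed in pairs, no label ties an array to a rat or a cage, and every p-value reflects only the spread among the arrays.

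Mast cells are resident immune cells of the dermis that store proteases and histamine in granules and release them when IgE bound to its high-affinity receptor is cross-linked. Carboxypeptidase A3 (Cpa3), the chymases (Cma1 and Mcpt1 here) and the tryptases (Tpsb2 and Tpsab1) are the granule proteases, histidine decarboxylase (Hdc) makes histamine, Fcer1a and Ms4a2 encode the alpha and beta subunits of the IgE receptor, and Kit is the receptor for stem cell factor, on which mast cells depend. In skin Kit is also made by melanocytes, and Hdc and the IgE receptor subunits are shared with basophils. Skin is a mixture of cells, and in bulk RNA of this kind fewer cells of a type and less RNA per cell cannot be told apart.

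All values are log2 relative signals, that is the log2 of the Agilent one-colour intensity minus the log2 of the 75th percentile of its array (1077 to 1703 intensity units over the arrays), so 0 is the 75th percentile and a difference of 1 is a 2-fold difference. A level is compared only with the level of the same probe on other arrays. Of the 30367 probes, 20709 were well above background, as flagged by the scanner software, on at least 8 arrays and were tested. The 10 probes of the 9 genes were among them, and no spot was saturated. Cma1, Tpsab1, Tpsb2, Hdc and Kit were well above background on 17 of 17 arrays. Cpa3 and Mcpt1 were so on 16, all but sham 7, Fcer1a on 15 (8 exposed and 7 sham) and Ms4a2 on 13 (8 exposed and 5 sham), so the lowest values of these 4 genes lie near the floor of the scanner. The chymase genes lie in a cluster of near relatives, as do the tryptases, and the probe sequences were not used here, so signal from a relative cannot be told from that of the named gene.

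Sequences of 250 bases just before the gene start were read for 8 of the 9 genes from RefSeq on rat build GRCr8, and those of 4 proteases are printed because Cpa3, Cma1 and Tpsab1 varied together over the arrays whereas the second tryptase, Tpsb2, did not follow them. Each is given 5′ to 3′ in the direction of its gene, with the letters GATAA, the core of the sites bound by GATA factors such as Gata2, in capitals on either strand. The windows are chr2:104673238-104673487 on the minus strand for Cpa3, chr15:33390134-33390383 on the minus strand for Cma1, chr10:14867303-14867552 on the minus strand for Tpsab1 and chr10:14886060-14886309 on the plus strand for Tpsb2, all of them upstream of the annotated transcript.
Cpa3: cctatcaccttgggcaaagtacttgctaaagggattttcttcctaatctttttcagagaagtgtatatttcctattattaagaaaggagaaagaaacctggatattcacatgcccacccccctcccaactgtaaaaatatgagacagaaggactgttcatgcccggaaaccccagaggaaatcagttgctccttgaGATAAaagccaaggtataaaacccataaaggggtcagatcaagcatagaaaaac
Cma1: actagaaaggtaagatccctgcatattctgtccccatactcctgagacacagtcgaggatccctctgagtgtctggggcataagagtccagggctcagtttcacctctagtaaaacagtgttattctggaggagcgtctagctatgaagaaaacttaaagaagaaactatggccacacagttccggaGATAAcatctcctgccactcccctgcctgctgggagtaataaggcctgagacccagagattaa
Tpsab1: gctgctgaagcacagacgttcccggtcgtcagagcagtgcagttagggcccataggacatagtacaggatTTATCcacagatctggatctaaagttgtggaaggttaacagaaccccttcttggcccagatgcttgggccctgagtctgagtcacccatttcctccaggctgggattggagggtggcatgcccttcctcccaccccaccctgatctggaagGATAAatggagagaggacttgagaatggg
Tpsb2: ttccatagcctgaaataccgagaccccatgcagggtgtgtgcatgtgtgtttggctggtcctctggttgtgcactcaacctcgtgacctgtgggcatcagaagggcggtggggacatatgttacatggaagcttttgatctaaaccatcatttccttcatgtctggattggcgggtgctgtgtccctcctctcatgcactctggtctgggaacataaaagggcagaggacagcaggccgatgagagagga
GATAA occurred on either strand in 5 of the 8 windows, against 23.5% of the 33469 windows of the same length in the RefSeq table. It stood 49 bases before the start of Cpa3, 58 before Cma1, 175 and 24 before Tpsab1, 99 before Mcpt1 and 88 before Fcer1a, and these letters were not in the windows of Tpsb2, Kit and Hdc. Hdc lacked them although it also varied with Cpa3 over the 17 arrays (r = 0.79). Whether the letters bear on the levels was not tested. The E-box letters CANNTG were in 6 of 8 windows, against 65.5% of all, and TATAAA in 3 of 8, against 8.06%, none of them overlapping a GATAA. A match is a description of the letters and shows no binding.

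The proteases spanned wide ranges over skin samples of the same group. The chymase Cma1 had a lowest, median and highest level of -3.41, -1.54 and 0.35 on sham arrays and of -2.72, -0.98 and -0.64 on exposed arrays, a 13.6-fold span over the 17 arrays. Sham 7 was the lowest array and sham 5 the highest, so the exposed arrays lay wholly inside the sham range. Cpa3 went from -6.42 through a median of -3.97 to -1.76 on sham arrays and from -5.15 through -3.50 to -2.46 on exposed arrays. Sham 7, where it was not well above background, was again lowest and sham 5 highest, and over the 16 arrays on which it was well above background Cpa3 spanned 10.5-fold. Mcpt1 ran from -6.14 through -5.08 to -3.00 in sham and from -6.02 through -4.65 to -3.95 in exposed skin, with the same lowest and highest arrays.

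The tryptases differed from each other in which arrays were low. Tpsab1 had a lowest, median and highest level of -4.55, -4.06 and -2.12 on sham arrays and of -5.03, -3.28 and -2.44 on exposed arrays, with exposed 3 lowest and sham 5 highest. Tpsb2 had -6.47, -4.63 and -3.86 on sham arrays and -5.18, -4.41 and -3.95 on exposed arrays. Its lowest value came from sham 6, an array that ranked between 4 and 7 from the bottom for each of the other 8 genes, and its highest from sham 2. The groups overlapped for both tryptases.

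Hdc, the enzyme of histamine synthesis, ran from -4.03 through -2.82 to -1.78 in sham skin and from -4.52 through -2.39 to -1.47 in exposed skin, with exposed 3 lowest and exposed 1 highest. Of the receptor genes, Fcer1a ran from -6.44 through -5.14 to -2.37 in sham and from -6.02 through -4.88 to -3.22 in exposed skin, and Ms4a2 from -7.71 through -5.62 to -4.25 and from -6.77 through -5.53 to -4.58. Both were lowest on sham 7, where neither was well above background, and highest on sham 5, like the chymases and Cpa3. Kit was far more even, at -2.97, -2.87 and -2.80 on sham arrays and -3.27, -2.77 and -2.42 on exposed arrays, a 1.80-fold span. All 8 sham values of Kit lay close together, and only 1 of the 9 exposed values fell inside their range, the others lying on both sides of it.

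**Figure D1:**
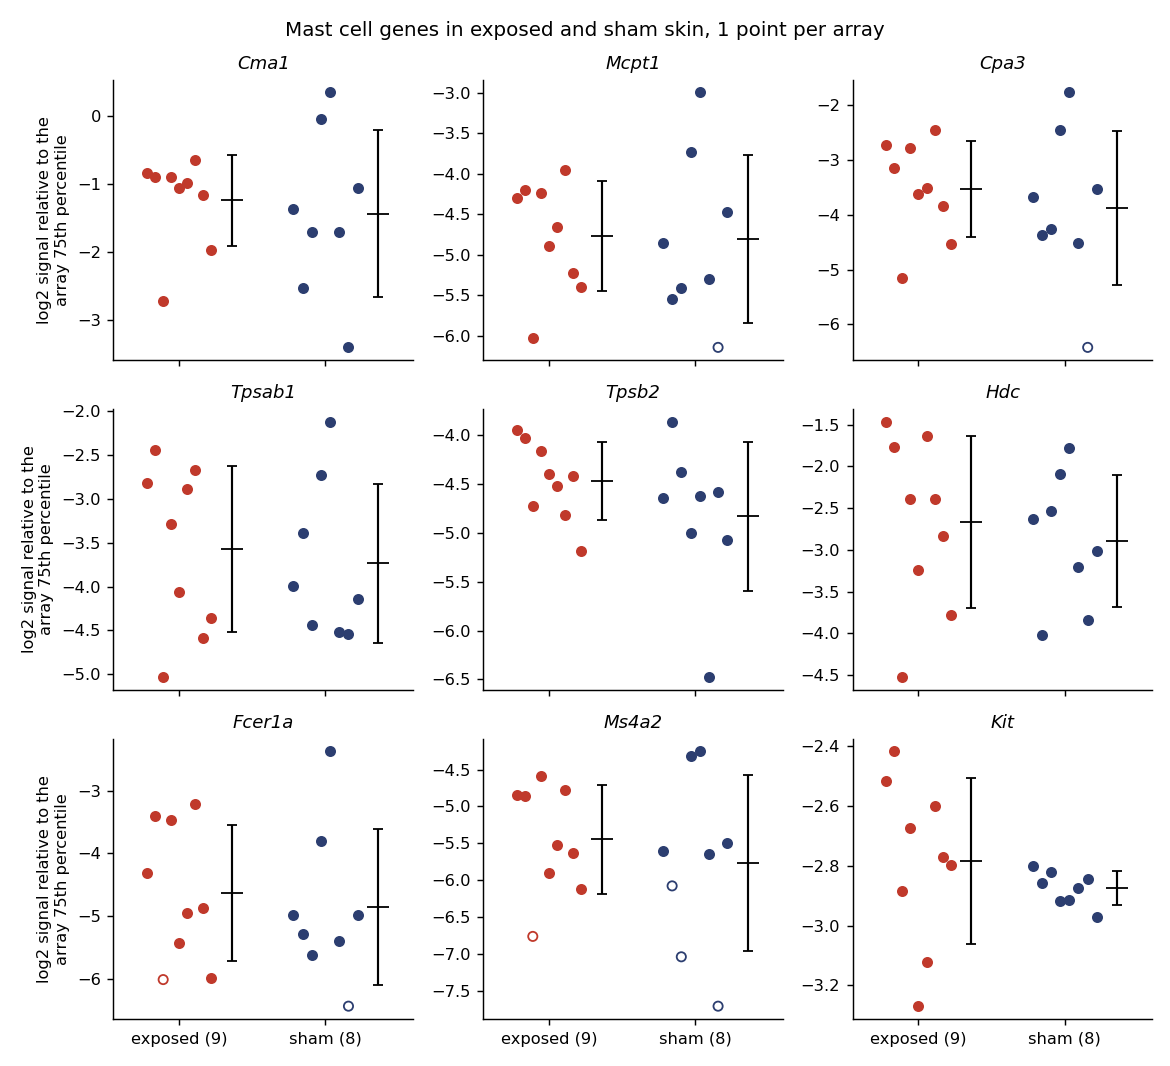
Log2 relative signal (y axis, relative to the 75th percentile of each array) of the 9 mast cell genes on each exposed and sham array, with group means and SD beside the points and open circles where the probe was not well above background. Kit spans 1.80-fold and Cma1 13.6-fold over the 17 arrays, Cpa3 spans 10.5-fold over the 16 arrays on which it was well above background, and the exposed and sham values overlap for every gene.

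The spread of these genes stood out from that of most probes. Their median SD over the 17 arrays was 0.90, against 0.19 over all tested probes, whose 90th percentile was 0.47. Cpa3 and Fcer1a each had a larger SD than 98.3% of tested probes and Cma1 than 97.7%, whereas Kit exceeded 52.8%. This is a description of levels that include dim values, and which part of it is technical was not tested.

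Of the 9 genes, 7, picked out after their values were seen (Cpa3, Cma1, Mcpt1, Tpsab1, Hdc, Fcer1a and Ms4a2), were high and low on nearly the same arrays. Of the 36 pairs of genes, 21 had a correlation past an adjusted p of 0.05 (two-sided permutation test with 100000 permutations, Benjamini-Hochberg over the 36 pairs), and these were all 21 pairs among the 7, with Pearson r from 0.71 to 0.96 (median 0.86) and Spearman rho from 0.75 to 0.99. Cpa3 and Cma1 gave r = 0.96 (permutation p = 1e-05, the smallest the permutations can give, adjusted p = 3.6e-05) and rho = 0.99 (p = 1e-05, adjusted p = 3.6e-05) over 17 arrays, and r = 0.92 without sham 5 and sham 7, the arrays farthest from the median of Cpa3. Without the corresponding 2 arrays of each pair the 21 values of r were 0.66 to 0.97. For the receptor side, Cpa3 with Ms4a2 gave r = 0.93 and with Fcer1a r = 0.91. Hdc was the loosest of the 7 relative to Cpa3, at r = 0.79 (permutation p = 0.00015, adjusted p = 0.00032).

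Tpsb2 and Kit did not pass with any member over the 17 arrays, although Kit with Fcer1a, at r = 0.38 there, passed on slide-centred values (r = 0.54, permutation adjusted p = 0.0451) and without sham 5 and sham 7 (r = 0.57, permutation adjusted p = 0.0432). Values centred on slide means are not independent of each other, so the p-value on slide-centred values may be too small. The 8 pairs with Tpsb2 had r from 0.033 to 0.35 and the 8 with Kit from 0.062 to 0.38. Under normexp background correction with 75th percentile scaling these ranges were 0.18 to 0.51 and 0.078 to 0.51, with 0 pairs past the threshold. The tryptases Tpsb2 and Tpsab1, which are neighbours on chromosome 10, gave r = 0.35 (permutation p = 0.173, adjusted p = 0.271) and rho = 0.24 (p = 0.353, adjusted p = 0.488), whereas Tpsab1 with Cpa3 gave r = 0.81 (permutation p = 4e-05, adjusted p = 0.00011) and rho = 0.88 (p = 2e-05, adjusted p = 6.5e-05). Whether the correlations of Tpsab1 and of Tpsb2 with Cpa3 differ was not tested.

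**Figure D2:**
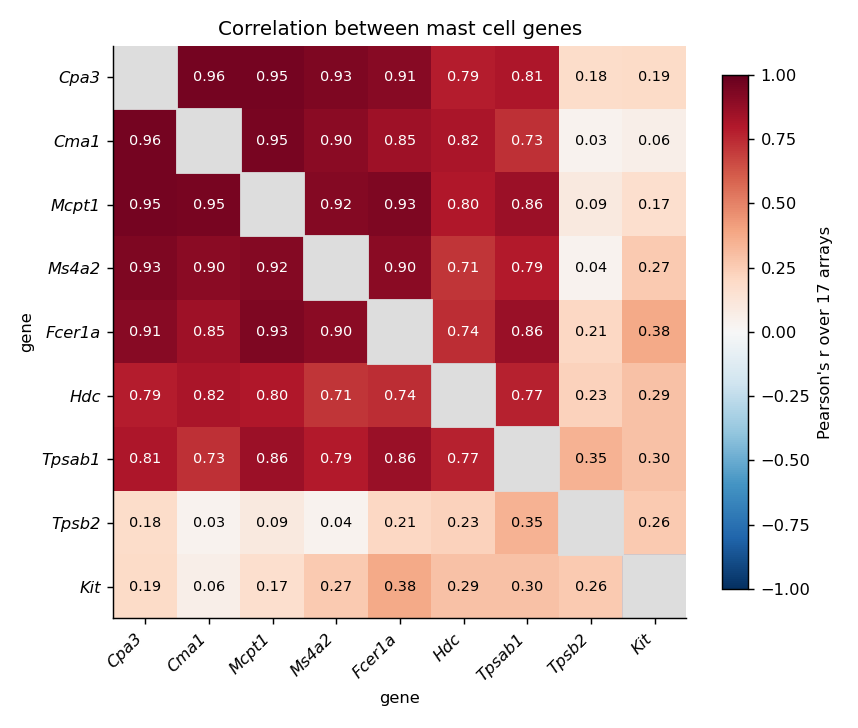
Pearson r between each pair of the 9 genes over the 17 arrays (colour scale from r, with the value in each cell). The block of 7 genes holds r from 0.71 to 0.96, and the rows of Tpsb2 and Kit hold r from 0.033 to 0.38.

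The correlations among the 7 were also computed within groups and slides and without single arrays. With each group centred on its mean they were 0.71 to 0.96, with each slide centred on its mean 0.65 to 0.96, over the 9 exposed arrays alone 0.72 to 0.98 and over the 8 sham arrays alone 0.59 to 0.97. Leaving out each array in turn gave values between 0.66 and 0.97, with 21 of 21 pairs past the adjusted threshold each time. Slide 2 was the only slide with 6 arrays. Within it r ran from 0.26 to 0.99, and the values under 0.36 there were pairs with Hdc. For Tpsb2 the values moved with the arrays chosen, from 0.33 to 0.67 on exposed arrays, from -0.24 to 0.28 on sham arrays and from -0.74 to -0.076 on slide 2, and none of these subsets was tested. Kit gave 0.25 to 0.65 on exposed and -0.59 to 0.28 on sham arrays.

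The arrays can be ordered by the mean of the 7 genes, each centred on its own mean. Sham 5 was highest at 1.66, followed by sham 4 at 1.06, exposed 7 at 0.92, exposed 2 at 0.83 and exposed 1 at 0.75. The lowest were sham 7 at -1.71, exposed 3 at -1.38 and exposed 9 at -0.80. Both ends were thus held by sham arrays, and the group means were 0.10 ± 0.81 (SD, n = 9) in exposed and -0.12 ± 1.06 (SD, n = 8) in sham skin.

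**Figure D3:**
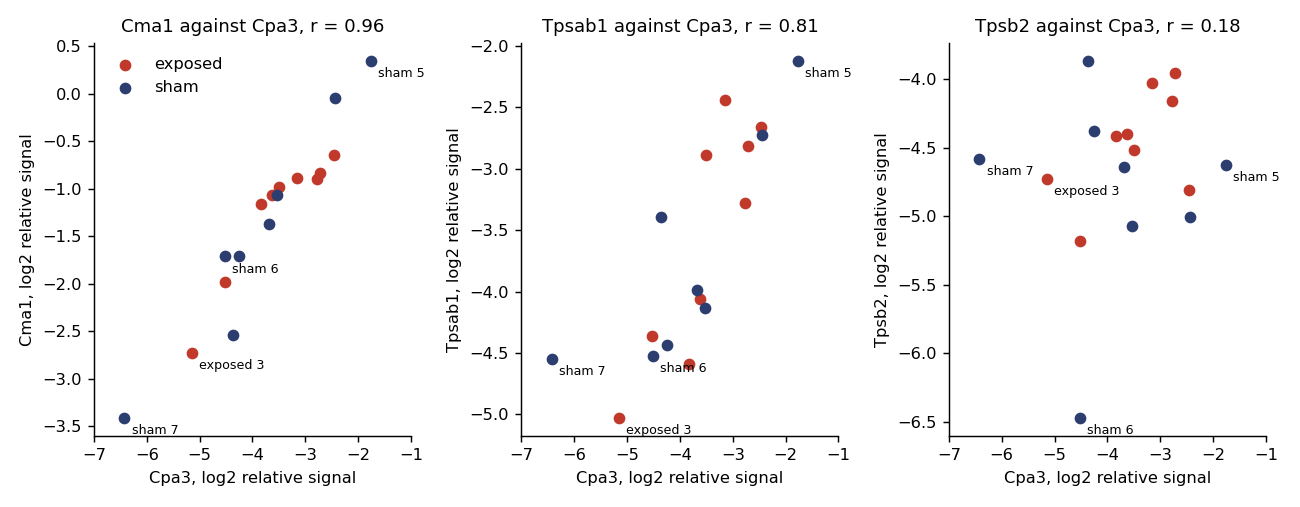
Log2 relative signal of Cpa3 (x axis) against that of Cma1, Tpsab1 and Tpsb2 (y axes), 1 point per array, exposed arrays in red and sham arrays in blue. Cma1 (r = 0.96) and Tpsab1 (r = 0.81) go up with Cpa3, and for Tpsb2 (r = 0.18) sham 6 lies far below the other arrays.

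Ranked by r among 11160 other named genes, Cpa3 and Cma1 were each the nearest gene to the other, with Mcpt1 at rank 2 and Ms4a2 at rank 3 for both. The nearest gene to Fcer1a was Mcpt1 and the nearest to Hdc was Cma1, whereas Tpsb2 stood at rank 3898 and Kit at rank 3819 relative to Cpa3. These ranks are across genes measured on the same arrays, and genes are not independent replicates.

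Outside the listed members, the genes whose levels were most like the mean of the 5 members detected on all arrays (Cma1, Hdc, Kit, Tpsab1 and Tpsb2) were led by Tph1, the tryptophan hydroxylase that starts serotonin synthesis, a mediator that rodent mast cells store, at r = 0.86 over 17 arrays. Cilp, a cartilage matrix protein gene, was also at 0.86, and Ampd3, an AMP deaminase gene, was at 0.81. Others among the 15 most alike were Lpxn at 0.79, Mlana, a melanocyte gene, at 0.77, Hpgd, which inactivates prostaglandins, at 0.75, and Lat, an adaptor of IgE and T cell receptor signalling, at 0.74. The 15 values went down to 0.73. The 5 members averaged there include Tpsb2 and Kit, which passed with no other member over the 17 arrays. The mean of the 7 genes that varied together, picked out after their values were seen, gave another order. Most like it were Ampd3 at 0.90, Dnase2b and Tph1 at 0.88 and Hpgds at 0.86. Cilp, Lpxn, Mlana, Hpgd and Lat were not among the 15 most like it. By single members, chosen after their values were seen, ranks were taken with the members left out. Milr1, which encodes an inhibitory mast cell receptor, had r = 0.84 with Cpa3 and 0.84 with Ms4a2, at rank 4 for both. Hpgds, the haematopoietic prostaglandin D synthase, had 0.89 with Mcpt1 at rank 2, and Tph1 had 0.92 with Fcer1a at rank 1. Rank 1 was Wdr53 for Cpa3 (0.87), Dnase2b for Ms4a2 (0.90) and Cma1 (0.89), and Tph1 for Mcpt1 (0.89). Dnase2b was well above background on 15 of 17 arrays, and under normexp background correction it had 0.89 with Ms4a2 and 0.72 with Cma1. The gene at rank 1 was Bag1 for Tpsab1 (0.86) and Aadacl4fm2 for Hdc (0.81). Tpsb2 was most like Rsl24d1, a ribosome biogenesis gene, at 0.85, a value that was 0.52 under normexp background correction, and Kit was most like Sytl4 and Nptn, both at 0.79. Under the same correction Sytl4 had 0.70 and Nptn 0.63 with Kit, and Sytl4 was well above background on only 10 arrays.

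The likeness was also read by role, in 6 lists of other mast cell genes that held 95 genes, 59 of them measured. Among all named genes other than the members, 0.977% had r of at least 0.7 with Cpa3 and 1.36% with Cma1. In the list of granule matrix, amine and lipid mediator genes 3 of 13 measured genes reached that r with Cpa3, Tph1 at 0.84, Hpgds at 0.82 and Alox5ap, which hands arachidonic acid to the leukotriene pathway, at 0.77. With Cma1 the same list held 4, the other being Ndst1, a heparan sulfate sulfotransferase gene, at 0.73. Serglycin (Srgn), the core protein of the granule matrix that other blood cells also make, had r = -0.51 with Cpa3. Among 11 genes of granule exocytosis Rab27a had 0.72 with Cpa3 but 0.64 with Cma1, whereas Vamp8 had 0.73 with Cma1 but 0.63 with Cpa3. Among the 13 genes of IgE receptor signalling none reached 0.7 with either. With Cpa3, Lat was at 0.67 and Fcer1g, the shared gamma chain, at 0.24. None of the 4 other proteases measured, the 12 growth, identity and receptor genes or the 6 histamine and protease receptor genes reached 0.7, and Gata2 had r = 0.031 with Cpa3.

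The comparison of exposed with sham skin asked whether the chronic exposure moved these genes. All 9 were higher on average in exposed skin, although Mcpt1 and Fcer1a turned to -0.095 and -0.063 under normexp background correction with 75th percentile scaling, and none passed the test, with adjusted p from 0.983 to 0.995 in limma (Benjamini-Hochberg over 20709 probes) and unadjusted p of at least 0.200. Over all tested probes the same fit called 0%, and 4.55% had an unadjusted p under 0.05, 0.594% as higher and 3.96% as lower in exposed skin. The median difference was 0.22 over the 9 genes and -0.025 over all tested probes, of which 38.7% were higher in exposed skin. Because 7 of the 9 genes varied together over the arrays, their shared direction does not count as 9 separate observations.

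Cpa3 averaged -3.53 ± 0.88 (SD, n = 9) in exposed and -3.87 ± 1.41 (SD, n = 8) in sham skin, so exposed skin was 0.35 higher on the log2 scale (limma adjusted p = 0.983, 95% interval -0.77 to 1.46). Cma1 averaged -1.24 ± 0.67 and -1.44 ± 1.23, a difference of 0.20 (-0.74 to 1.13). The intervals of both run from a fall to a rise of more than 0.7 on the log2 scale, so neither a moderate rise nor a moderate fall is excluded.

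Tpsb2 had the largest difference of the proteases, -4.47 ± 0.40 in exposed against -4.83 ± 0.76 in sham skin, or 0.36 (-0.21 to 0.94, limma adjusted p = 0.983). The sham mean includes the low value of sham 6, the medians were -4.41 and -4.63, and all 9 exposed values lay inside the sham range. The difference of Tpsb2 was 0.13 without sham 6 and 0.081 under normexp correction with 75th percentile scaling, where Cpa3 differed by 0.084 and Ms4a2 by 0.015. Ms4a2 differed by 0.32 (-0.62 to 1.26), Fcer1a by 0.23 (-0.89 to 1.35), Hdc by 0.22 (-0.67 to 1.11), Tpsab1 by 0.16 (-0.73 to 1.06) and Mcpt1 by 0.043 (-0.79 to 0.87). The second probe of Fcer1a, which tracked its main probe at r = 0.97 over the arrays, gave 0.25. Kit, with the tightest interval, differed by 0.091 (-0.11 to 0.30).

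**Figure D4:**
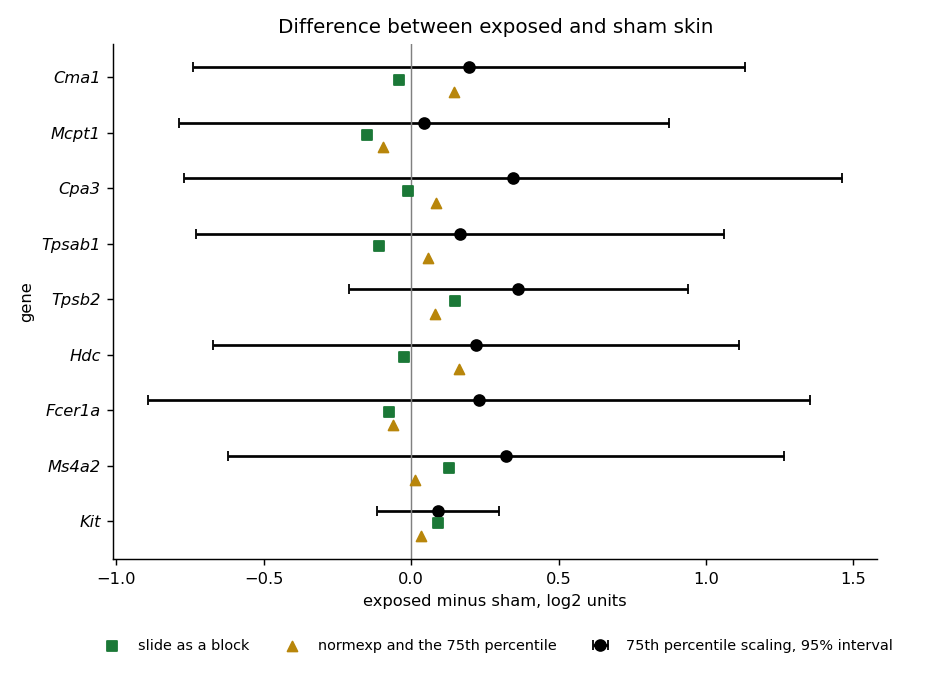
Exposed minus sham difference (x axis, log2) of each of the 9 genes, as a black point with its 95% interval under 75th percentile scaling, a green square with slide as a block and a gold triangle under normexp correction with 75th percentile scaling. Every interval spans 0, 6 of the 9 squares lie below 0, and so do the triangles of Mcpt1 and Fcer1a.

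The arrays lay on 4 slides, which held 3, 4, 1 and 1 exposed and 2, 2, 1 and 3 sham arrays, and the direction of most members rested on how slides were treated. With slide as a block the difference was -0.012 for Cpa3, -0.040 for Cma1, -0.15 for Mcpt1, -0.11 for Tpsab1, -0.025 for Hdc and -0.075 for Fcer1a, and 0.15 for Tpsb2, 0.13 for Ms4a2 and 0.090 for Kit. Within slides, Cpa3 differed by 0.35, 0.26, -2.07 and 0.30 on slides 1 to 4, where slide 3 sets 1 exposed array against sham 5. Without sham 7 the difference was -0.018 for Cpa3 and -0.086 for Cma1. Between slides limma called 0 of the 9 genes and 0% of all probes after adjustment, and 8.90% of all probes had an unadjusted p under 0.05. The gene with the lowest p between slides was Tpsb2, with a limma adjusted p of 0.476.

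The same 6 lists showed no called difference, with 0 of 59 genes past an adjusted p of 0.05 in limma and 3 of 59 (Gata2, Unc13d and Rab27b) past an unadjusted p of 0.05, a level that 4.55% of all tested probes passed, 0.594% as higher and 3.96% as lower. The counts higher and lower in exposed skin were 1 and 3 for other proteases (median -0.15), 6 and 7 for granule matrix and mediators (median -0.038), 7 and 6 for IgE receptor signalling (median 0.0089), 8 and 4 for growth, identity and receptors (median 0.069), 2 and 9 for exocytosis (median -0.054) and 1 and 5 for histamine and protease receptors (median -0.039). Gata2, the factor that sustains mast cell identity, differed by 0.21 (0.0099 to 0.42), and Unc13d, which primes granules for fusion, by -0.17 (-0.29 to -0.052). Rab27b, a GTPase of granule transport, differed by -0.14 (-0.27 to -0.014), and the limma adjusted p was 0.983 for all 3. Kitlg, the ligand of Kit, differed by 0.11 (-0.10 to 0.33). Of the 95 listed genes, 25 were too dim to test, among them Mcpt3, Mcpt4, Tpsg1, Ctsg and Il13.

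Other cells of the skin varied over the arrays as well. Of 144 relations between the 9 genes and the marker scores of 16 other cell types, each the mean of the list's genes centred over the arrays, 0 passed an adjusted p of 0.05 by permutation of Pearson r, and the lowest adjusted p was 0.0734. Fcer1a had r = -0.73 (permutation p = 0.00051, adjusted p = 0.0734; rho = -0.60, p = 0.0125, adjusted p = 0.231) with the hair follicle list, whose score ran from -7.78 to 2.50 on sham and from -3.58 to 2.37 on exposed arrays, and r was -0.50 without exposed 4 and sham 5. Cma1 had r = 0.73 (permutation p = 0.00108, adjusted p = 0.0778; rho = 0.64, p = 0.00678, adjusted p = 0.231) with the fibroblast and dermal matrix list, whose score ran from -0.52 to 1.10 on sham and from -0.33 to 0.31 on exposed arrays, and r was 0.58 without sham 2 and sham 5. That relation was -0.37 within slide 2. The basophil list, with 3 of its 5 genes measured and Ccr3 and Cd200r1 too dim, had r from -0.30 (Hdc) to 0.17 (Fcer1a) over the 9 genes, with -0.063 for Cpa3. Hdc had r = -0.80 with it on the 6 arrays of slide 2, a value with no test. The melanocyte list had 5 of its 8 genes used, with Kit, itself a member, left out of the score. Of the genes used, Mlana had r = 0.70 with Cma1, whereas Slc45a2, Tyrp1, Sox10 and Tyr had 0.38, 0.28, 0.23 and 0.15. The score of the melanocyte list had r from 0.058 (Tpsb2) to 0.60 (Hdc), with 0.49 for Tpsab1, 0.48 for Fcer1a, 0.36 for Kit and 0.32 for Cpa3. For Hdc the permutation p was 0.0126 (adjusted p = 0.151; rho = 0.55, p = 0.0247, adjusted p = 0.237), and r was 0.48 without exposed 3 and sham 8. Whether the share of dermis, hair follicle or other tissue in an explant sets the mast cell levels was not tested.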

How the data were processed

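Skin RNA was hybridised to 17 one-colour Agilent arrays. Each scanner file gives spot intensity, not log transformed, made by the authors with Agilent Feature Extraction 10.7.3.1, per the file headers. The deposited value table holds log2 values of 14853 probes centred by the authors and, with 3 of the 9 genes, served only as an alternative.

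From the processed intensity, unflagged non-control spots were averaged per probe on the log2 scale and the 75th percentile of each array was subtracted. Probes well above background on at least 8 arrays were fitted with limma 3.58.1 in R 4.3.3, exposed against sham, with Benjamini-Hochberg adjustment over 20709 probes. A gene was read from its tested probe of highest mean. Symbols came from the RefSeq table of GRCr8 through the accession of each probe, and 17998 of 30367 probes had one. Depth does not apply to arrays, and their number limits the precision.

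Correlations were tested with 100000 permutations and adjusted within their family. The genes most alike are the 15 with the highest r with the mean of the members detected on all arrays. The same was read for the mean of the 7 genes that varied together. The members, lists and tests were chosen with earlier results of these data known. The limma step was tested on simulated data.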

Additional observations from a re-analysis of the deposited data

Results flagged for a closer look

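Of 20 sets of values examined, each gene's probe within each group, 1 had an array far from the others, about what chance gives at 1 in 20. For the tryptase gene Tpsb2, sham 6 was the lowest of the 8 sham arrays at -6.47, and the next lowest was at -5.07. The probe was well above background there. Without sham 6 the exposed minus sham difference of Tpsb2 was 0.13, against 0.36 with all arrays.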

How the results depend on the processing

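No alternative moved a member past an adjusted p of 0.05, and 0 probes passed between exposed and sham skin in any of them. Tpsb2 was higher in exposed skin under every setting, and the other 8 genes turned sign in at least 1. With slide as a block the differences were -0.012 (Cpa3), -0.15 (Mcpt1), -0.11 (Tpsab1), -0.040 (Cma1), -0.025 (Hdc) and -0.075 (Fcer1a). On slide 3, with 1 array of each group and no test, they were -2.07 (Cpa3), -2.23 (Mcpt1), -2.47 (Tpsab1), -1.51 (Cma1), -1.38 (Ms4a2), -1.06 (Hdc) and -2.51 (Fcer1a). On slide 2 they were -0.022 (Cma1), -0.048 (Kit) and -0.10 (Hdc), and on slide 4 -0.090 (Mcpt1), -0.42 (Hdc) and -0.39 (Fcer1a). Normexp correction with the 75th percentile gave -0.095 (Mcpt1) and -0.063 (Fcer1a), normexp with quantile scaling -0.014 (Mcpt1), and array weights -0.049 (Mcpt1). Leaving out each array in turn gave -0.018 to 0.65 for Cpa3, -0.086 to 0.45 for Cma1 and -0.15 to 0.30 for Mcpt1, and the other 6 genes stayed above 0. The cause of these turns was not tested.

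The number of correlated pairs was 21 or 22 under every alternative, including those added after seeing the data (each array left out, the highest and lowest array of Cpa3 left out, only arrays with both probes well above background). Tpsb2 turned sign with Ms4a2 on group-centred values (-0.018), and on slide-centred values with Cpa3 (-0.18), Mcpt1 (-0.13), Cma1 (-0.27), Ms4a2 (-0.27) and Fcer1a (-0.11). Under normexp correction with 75th percentile scaling the 8 pairs with Tpsb2 had higher r, 0.18 to 0.51. Their median was 0.39, against 0.19 in the main setting, and 0 pairs passed. Kit with Fcer1a passed at 0.54 on slide-centred values and at 0.57 without sham 5 and sham 7. Dim values limit Cpa3, Mcpt1, Fcer1a and Ms4a2 at their low ends. No paired analysis was possible because no label ties an array to a rat or a cage.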
